A study of Mus musculus with 8 samples.

Results

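The genes described here are the 2 corticosteroid receptors and 6 genes that respond to them: Nr3c1, Nr3c2, Fkbp5, Plin4, Hif3a, Tsc22d3, Sgk1 and Zbtb16. They were taken by symbol from the deposited feature lists, where each of the 8 matched 1 of 32285 genes. Nuclei of C57BL/6JN mice were taken from tissue punches of the left brain side at 3 months (young) and 21 months (old), from the anterior hippocampus and from the caudate putamen. Each of the 4 groups of region and age had 2 libraries, numbered 1 and 2, so 8 in all. Each library joins a male and a female sample, homogenised apart, whose nuclei were combined in equal numbers during sorting, so that both sexes share a library (10x Genomics v3.1). The animals carried no transgene or treatment in the labels, which do not say whether both regions came from the same animals. With 2 libraries per group, spreads and p-values measure only the variation between these libraries. The genes were selected on levels and age differences measured in these same libraries, so their differences by age, region and sex are given as descriptions, with no test.

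Cortisol-like steroids act through a pair of ligand-activated transcription factors. The mineralocorticoid receptor (Nr3c2) has the higher affinity for corticosterone and is known for its abundance in hippocampal neurons, while the glucocorticoid receptor (Nr3c1) is widespread and is occupied mainly at stress levels or the daily peak. Unliganded receptors are held by HSP90 and its co-chaperones, and ligand-bound receptors enter the nucleus and bind response elements. Fkbp5 encodes a co-chaperone that lowers the receptor's affinity for hormone and is itself induced by it. Tsc22d3 encodes GILZ, an inhibitor of inflammatory transcription, and Sgk1 a kinase that regulates ion channels and transporters. Plin4 encodes a lipid droplet coat protein, Hif3a a member of the hypoxia-inducible factor family, and Zbtb16 the transcriptional repressor PLZF.

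In the GENCODE vM21 annotation of GRCm38, all 8 are protein-coding genes. Nr3c2 lies at chr8:76899442-77245012, Fkbp5 at chr17:28399094-28517527 and Plin4 at chr17:56100591-56109803. Hif3a lies at chr7:17031507-17062427, Tsc22d3 at chrX:140539528-140600659, Sgk1 at chr10:21882184-21999903 and Zbtb16 at chr9:48654297-48836222.

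The RefSeq promoter table (GRCm38.p6) held 13 promoters of 6 members, and none for Nr3c1 and Zbtb16 was used. The 250 bases before each start were searched on both strands for the palindromic glucocorticoid response element of 13 bases, searched with its variable positions open (the full element), and for its short site AGAACA, which can overlap a full element. The full element was present in 1 of the 13, an Sgk1 promoter, against 0.387% of 32851 promoters of the same length. A short site was present in 4 of the 13, which were 3 Sgk1 promoters and 1 Tsc22d3 promoter, against 16.1% of all promoters. No match was present in these windows of Fkbp5, Plin4, Hif3a and Nr3c2. For members that differed most in oligodendrocytes 1 promoter each is shown, with full elements and short sites in capitals. Sgk1 and Tsc22d3 had several promoters, Sgk1 the most of the 13. For both, the promoter shown is 1 with a match, and others without a match are not shown.
Sgk1 (chr10:21993640-21993889, plus strand): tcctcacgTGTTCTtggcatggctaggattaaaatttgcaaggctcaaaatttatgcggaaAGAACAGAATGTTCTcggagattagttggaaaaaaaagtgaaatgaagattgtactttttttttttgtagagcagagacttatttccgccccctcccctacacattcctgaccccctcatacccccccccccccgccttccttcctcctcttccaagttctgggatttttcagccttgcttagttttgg
Tsc22d3 (chrX:140600523-140600772, minus strand): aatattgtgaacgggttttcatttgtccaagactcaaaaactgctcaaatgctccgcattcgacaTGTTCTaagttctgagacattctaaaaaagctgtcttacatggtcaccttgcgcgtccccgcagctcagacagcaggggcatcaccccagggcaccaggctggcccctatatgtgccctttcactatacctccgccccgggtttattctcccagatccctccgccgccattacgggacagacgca
Fkbp5 (chr17:28486150-28486399, minus strand): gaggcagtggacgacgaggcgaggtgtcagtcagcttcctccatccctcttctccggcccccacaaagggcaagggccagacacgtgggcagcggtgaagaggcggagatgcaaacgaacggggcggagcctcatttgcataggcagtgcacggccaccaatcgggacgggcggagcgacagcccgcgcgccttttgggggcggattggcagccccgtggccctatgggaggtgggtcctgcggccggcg
Plin4 (chr17:56109783-56110032, minus strand): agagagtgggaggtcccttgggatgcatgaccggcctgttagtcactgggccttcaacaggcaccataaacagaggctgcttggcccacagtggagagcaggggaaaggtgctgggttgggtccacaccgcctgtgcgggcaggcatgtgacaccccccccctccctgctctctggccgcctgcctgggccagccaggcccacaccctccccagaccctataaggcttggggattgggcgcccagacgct
Hif3a (chr7:17062428-17062677, minus strand): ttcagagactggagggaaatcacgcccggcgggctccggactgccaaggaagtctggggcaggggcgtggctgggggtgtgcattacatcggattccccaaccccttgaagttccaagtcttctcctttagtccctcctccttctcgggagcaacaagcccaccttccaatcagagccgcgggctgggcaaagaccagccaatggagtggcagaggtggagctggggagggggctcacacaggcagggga
The full element of Sgk1 began 188 bases before the start, and short sites began at 242, 189 and 180 bases, the last 2 of them overlapping the full element. The short site of Tsc22d3 began 185 bases before the start. These are matches of letters, and binding was not measured.

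The libraries held 67205436 to 234811422 unique molecular identifiers (UMIs, each counted once per captured RNA molecule). After filtering, 6382 to 17031 nuclei per library remained, with median depths of 6702 to 11266 UMIs. Clusters were named from marker genes, so every class name below stands for an X-like class, such as oligodendrocyte-like nuclei, and 2.25% to 12.3% of the nuclei of a library stayed unnamed. For each class and library all counts were summed, and levels are given as CPM, the counts of a gene scaled to a fixed total of UMIs per sum. CPM is thus a share of the UMIs of a class, not a count per nucleus. Median depth relative to the library median was 0.334 in hippocampal and 0.29 in caudate putamen microglia, 2.24 in CA1 and 2.964 in CA3. Orders of classes by CPM therefore need not hold per nucleus. A class in a library is given with at least 20 nuclei. Pairs of libraries shared 17 to 77 cell barcodes, at most 0.548% of the smaller library.

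The mineralocorticoid receptor was highest in hippocampal principal neurons. Nr3c2 reached 1603 ± 256 CPM in CA1 (mean ± SD, n = 4 libraries), 1309 ± 30.5 CPM in dentate granule cells and 1220 ± 89.0 CPM in CA3. The CA1 libraries (1351 to 1892 CPM) did not overlap those of dentate granule cells (1269 to 1343 CPM), while the latter overlapped CA3 (1136 to 1344 CPM). Nr3c2 was next highest in neuroblasts (850.0 ± 186 CPM, n = 3), fibroblasts (678 ± 62.7 CPM, n = 6) and astrocytes (592 ± 39.3 CPM, n = 8), whose ranges overlapped in that order. Medium spiny neurons, the projection neurons of the striatum, were far lower, with 295 ± 35.2 CPM in D1 and 318 ± 39.5 CPM in D2 cells. Oligodendrocytes had 215 ± 28.0 CPM, the lowest of the classes with 8 libraries.

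The glucocorticoid receptor had a different order. Nr3c1 was highest in microglia (338 ± 38.8 CPM, n = 8), macrophages (323 ± 68.3 CPM, n = 2) and endothelial cells (301 ± 61.3 CPM, n = 8), whose ranges overlapped. Fibroblasts followed with 245 ± 60.4 CPM (n = 6), then oligodendrocytes with 202 ± 19.2 CPM and astrocytes with 172 ± 23.4 CPM. Among neurons Nr3c1 was 126 ± 5.14 CPM in CA1, 96.3 ± 4.46 CPM in dentate granule cells, 87.8 ± 1.82 CPM in D2 and 84.0 ± 1.08 CPM in D1 cells. CA3 was lowest at 44.2 ± 6.82 CPM, with libraries between 38.4 and 54.1 CPM. Its highest library overlapped the lowest of inhibitory interneurons (52.8 CPM), but none of CA1 (120.8 to 133 CPM).

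The response genes each had their own order of classes. Fkbp5 was highest in macrophages (300.2 ± 84.6 CPM, n = 2), microglia (263 ± 87.6 CPM) and fibroblasts (152 ± 95.2 CPM), and dentate granule cells (113 ± 5.67 CPM) led the neurons. Astrocytes had the lowest Fkbp5 level, 10.2 ± 5.38 CPM. Tsc22d3 was highest in oligodendrocytes, with every library (110 to 231 CPM) above those of macrophages (54.6 to 98.2 CPM) and astrocytes (24.6 to 93.7 CPM). In D1, D2, CA1, CA3 and dentate granule neurons Tsc22d3 stayed at or below 3.96 CPM in every library. Sgk1 was highest in D1 (417 ± 34.3 CPM) and D2 neurons (367 ± 32.7 CPM), whose ranges overlapped, with choroid plexus next (317 ± 39.1 CPM, n = 2), and lower in CA3 (269 ± 19.0 CPM), oligodendrocyte precursor cells (226 ± 19.3 CPM) and CA1 (97.5 ± 9.52 CPM).

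Plin4 and Hif3a were each highest in 1 glial class. Plin4 had a mean of 11.1 ± 5.91 CPM in oligodendrocytes (5.30 to 19.7 CPM) and means of at most 5.87 CPM in the other classes, its libraries overlapping ependymal cells (5.87 CPM) and choroid plexus (4.04 and 7.68 CPM), with 0.403 to 1.13 CPM in principal and medium spiny neurons. Hif3a was highest in astrocytes, where every library (93.0 to 203 CPM) lay above neuroblasts, the next class (29.8 to 56.9 CPM). Zbtb16 was highest in CA1 (376 ± 28.3 CPM), dentate granule cells (374 ± 37.7 CPM) and oligodendrocytes (314 ± 146 CPM), with overlapping ranges. In D1 and D2 neurons Zbtb16 was 0.804 ± 0.432 and 0.863 ± 0.514 CPM, below every other class. Few nuclei lay behind the macrophage and vascular values, and also behind those of ependymal cells (1 library) and choroid plexus (2 libraries). Macrophages had 2 libraries with enough nuclei, and some libraries of pericytes and fibroblasts listed 0 counts of Plin4 or Hif3a.

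**Figure D1:**
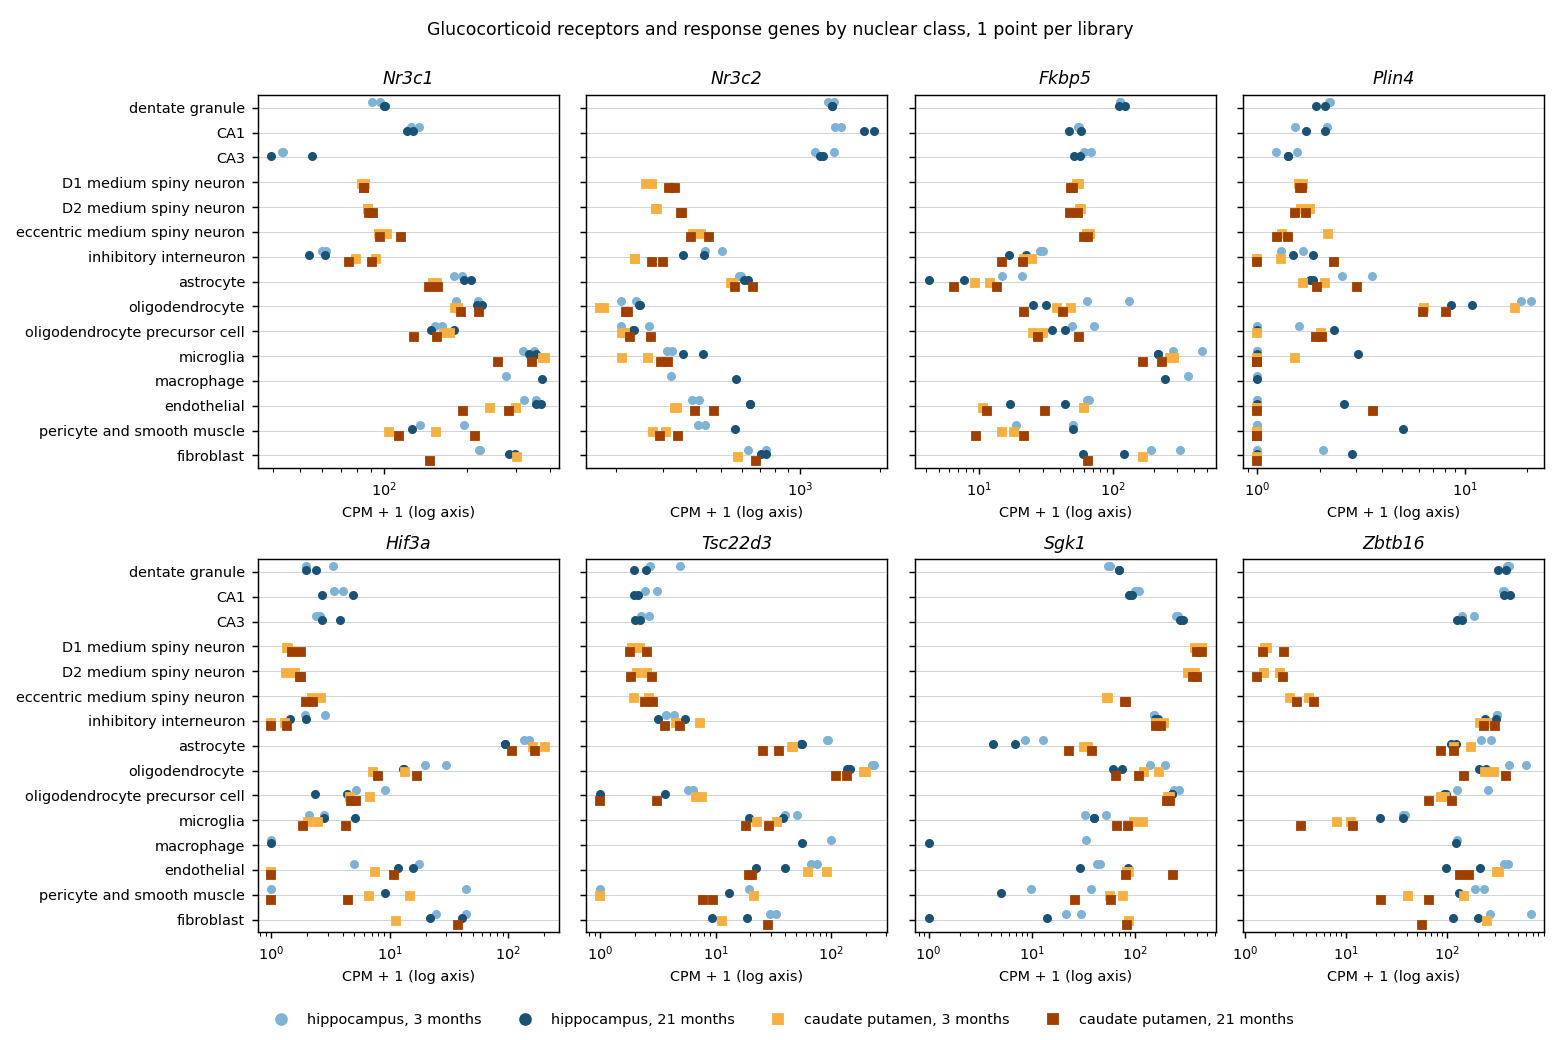
Level of each gene (x axis, CPM + 1, log axis) in the main nuclear classes (y axis), with 1 point per library, circles for hippocampus and squares for caudate putamen, light for 3 and dark for 21 months. Nr3c2 peaks in CA1 (1351 to 1892 CPM), Tsc22d3 and Plin4 in oligodendrocytes, Hif3a in astrocytes, and Sgk1 in D1 and D2 neurons, where Zbtb16 is at most 1.45 CPM.

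In hippocampal oligodendrocytes all 6 response genes were lower at 21 months than at 3 months in both libraries. Fkbp5 was 131 and 62.4 CPM in the young libraries 1 and 2 and 30.7 and 24.2 CPM in the old ones, a log2 fold change of -1.75 (SE 0.44). Sgk1 was 193 and 141 CPM young and 61.1 and 74.2 CPM old (-1.26, SE 0.30). Zbtb16 was 606 and 406 CPM young and 241 and 206 CPM old (-1.13, SE 0.40). For these 3 genes the young libraries differed from each other as well, library 1 being the higher. Plin4 was 17.6 and 19.7 CPM young and 9.83 and 7.55 CPM old (-1.05, SE 0.48). Hif3a was 28.8 and 18.7 CPM young and 12.1 and 11.98 CPM old (-0.91, SE 0.48). Tsc22d3 was 224 and 231 CPM young and 144 and 136 CPM old (-0.65, SE 0.11), with the closest replicates of the 6. The young and old libraries did not overlap for any of these 6, and 28.4% of all genes tested in this class were lower without overlap, so 6 of 8 is read as a description of listed genes only. Nr3c1 (217 and 182 CPM young, 225 and 217 CPM old; 0.19, SE 0.12) differed little, and Nr3c2 was slightly higher in the old libraries (207 and 238 CPM, then 245 and 243 CPM), the 1 member higher without overlap, where 17.4% of all genes were.

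In caudate putamen oligodendrocytes the old libraries lay below the young ones for 2 of the 6. Tsc22d3 was 192 and 198 CPM young and 110 and 136 CPM old (-0.62, SE 0.10). Sgk1 was 121 and 172 CPM young and 65.2 and 110 CPM old (-0.70, SE 0.28). These were the 2 members lower without overlap, where 29.8% of all genes were. Both receptors were higher without overlap there, where 19.3% of all genes were, with Nr3c1 at 181 and 185 CPM young and 219 and 190 CPM old (0.22, SE 0.12) and Nr3c2 at 172 and 178 CPM young and 216 and 221 CPM old (0.37, SE 0.08). Fkbp5 was 47.7 and 37.2 CPM young and 20.4 and 41.5 CPM old (-0.41, SE 0.40). Zbtb16 was 289 and 234 CPM young and 147 and 381 CPM old (0.06, SE 0.39). In both genes old library 1 was the lowest of the 4, while old library 2 lay within the young range for Fkbp5 and above it for Zbtb16. Plin4 (16.5 and 5.33 CPM young, 5.30 and 7.08 CPM old) and Hif3a (12.5 and 6.17 CPM young, 6.93 and 15.998 CPM old) overlapped too.

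In hippocampal astrocytes the response genes were lower at 21 months as well. Hif3a was 150 and 135 CPM in the young and 93.2 and 93.0 CPM in the old hippocampal libraries (-0.56, SE 0.19). Zbtb16 was 270 and 213 CPM young and 121 and 108 CPM old (-1.02, SE 0.22), and Tsc22d3 90.6 and 93.7 CPM young and 55.2 and 53.4 CPM old (-0.71, SE 0.13). Fkbp5 was low throughout, with 20.1 and 13.7 CPM young and 6.71 and 3.21 CPM old (-1.59, SE 0.42). All 6 response genes were lower without overlap there, as were 27.8% of all genes, and both receptors were higher without overlap, as were 17.9%. In caudate putamen astrocytes 1 of the 6 was, Tsc22d3 at 45.1 and 45.5 CPM young and 24.6 and 34.1 CPM old (-0.63, SE 0.15), where 22.7% of all genes were, and Nr3c2 was higher without overlap (543 and 555 CPM young, 657 and 564 CPM old), where 20.9% of all genes were. Hif3a there was 203 and 162 CPM young and 107 and 166 CPM old, with old library 2 inside the young range. In the hippocampus a cluster with markers of both astrocytes and choroid plexus stayed unnamed and out of this class. It held 134 and 215 young and 386 and 112 old nuclei, beside 1595 and 1527 young and 1466 and 709 old astrocytes. A caudate putamen cluster of 172 nuclei was named astrocyte and kept. It shared Slc6a11, Gm12239, Etnppl, Atp13a4 and Slc4a4 among its leading genes with the unnamed hippocampal cluster. The part of these 2 clusters in the astrocyte values by age and by region was not tested.

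Among other glial and vascular classes, Fkbp5 in microglia was lower in all 4 old libraries (214, 214, 166 and 229 CPM) than in the 4 young ones (457, 276, 281 and 263 CPM), with a log2 fold change over both regions of -0.58 (SE 0.17), where 2.74% of all genes were lower without overlap. Endothelial Tsc22d3 was 61.7 to 90.6 CPM in the 4 young and 18.4 to 39.2 CPM in the 4 old libraries (-1.47, SE 0.31), and Zbtb16 312 to 399 CPM young and 96.1 to 209 CPM old (-1.12, SE 0.22), 2 of the 8 members, where 2.56% of all genes were lower without overlap. Endothelial Nr3c2 was higher at 21 months (0.58, SE 0.14), with 334 to 411 CPM young and 396 to 645 CPM old, ranges that overlapped between regions. In hippocampal oligodendrocyte precursor cells 5 of the 8 members were lower at 21 months without overlap (Fkbp5, Hif3a, Tsc22d3, Sgk1 and Zbtb16), where 25.3% of all genes were, and Hif3a and Tsc22d3 missed the filter on low counts there. Split by sex, 1 member was lower in their female sums (all genes, 22.4%) and 1 in their male sums (23.2%). In each sex 1 was higher (15.7% and 14.9%). In caudate putamen precursor cells 2 members were lower (all genes, 22.6%) and 1 higher (17.4%). Fkbp5 was 70.2 and 47.8 CPM young and 42.9 and 34.2 CPM old in hippocampal precursor cells (-0.53, SE 0.28), but 28.9 and 24.2 CPM against 26.2 and 54.5 CPM in the caudate putamen (0.68, SE 0.29). Over both regions the age difference of Sgk1 was -0.04 (SE 0.09) in the precursors, and in mature oligodendrocytes -0.98 (SE 0.20), and the difference between the classes was not tested. Over both regions the age differences of the receptors in oligodendrocytes were 0.20 (SE 0.08) for Nr3c1 and 0.28 (SE 0.06) for Nr3c2.

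Since each library holds a male and a female sample, nuclei were split by sex-linked transcripts (Xist, or the 4 Y-linked genes Ddx3y, Eif2s3y, Kdm5d and Uty), which assigned 72.1% to 81.7% of the nuclei of a library. Of its oligodendrocytes 64.2% to 72.4% were assigned, and of its microglia 65.1% to 74.6%. This split was added after the data had been seen. In oligodendrocytes the age differences of the response genes were larger in male than in female nuclei. Male Fkbp5 was 185 and 79.6 CPM in the young hippocampal libraries and 16.02 and 12.2 CPM in the old ones, and 88.1 and 44.2 CPM against 9.61 and 14.3 CPM in the caudate putamen. Female Fkbp5 was 46.0, 36.6, 27.7 and 29.6 CPM in the same 4 young libraries and 40.8, 48.2, 31.8 and 51.7 CPM in the old ones. Every young male sum thus lay above, and every old male sum below, the female sum of its own library. Over both regions the log2 fold change of Fkbp5 with age was -2.84 (SE 0.40) in male and 0.38 (SE 0.33) in female nuclei, and the female minus male difference was 3.05 (SE 0.27). That difference, here and for the other genes, came from a fit with library as a block, and so is not the exact difference of the values within each sex. The values within each sex came from a fit with no library term. Their SEs thus do not account for male and female sums sharing a library.

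The fold changes of Zbtb16, Plin4 and Hif3a were likewise below 0 in male and above 0 in female oligodendrocytes, and that of Sgk1 was below 0 in males and near 0 in females. Male Sgk1 was 254, 155, 185 and 175 CPM in the 4 young libraries (hippocampus 1 and 2, then caudate putamen 1 and 2) and 41.2, 34.3, 44.0 and 64.6 CPM in the 4 old ones (-2.07, SE 0.31). Female Sgk1 ranged from 73.4 to 168 CPM at 3 months and from 80.8 to 135 CPM at 21 months (0.01, SE 0.28). Male Zbtb16 was 792, 509, 555 and 191 CPM young and 122, 126, 79.5 and 150 CPM old (-2.03, SE 0.42), with young caudate putamen library 2 far below the other young sums. Female Zbtb16 was 247, 285, 180 and 262 CPM young and 328, 317, 220 and 489 CPM old (0.53, SE 0.39), the last value being old caudate putamen library 2. Male Plin4, from 1 to 56 UMIs per sum, was 24.1, 30.3, 35.8 and 7.69 CPM young and 0.763, 3.58, 4.08 and 2.25 CPM old (-3.01, SE 0.55). Its exact 95% Poisson interval, which covers counting error only, was 4.39 to 12.5 CPM in the lowest young sum and 2.23 to 6.84 CPM in the highest old one, and these overlapped. Male Hif3a was 43.3, 21.1, 27.2 and 9.61 CPM young and 5.34, 12.2, 4.66 and 6.01 CPM old (-1.76, SE 0.44), and the ages overlapped in 1 sum each.

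Tsc22d3 was the member whose level was lower with age in both sexes. Male Tsc22d3 was 227, 231, 248 and 198 CPM young and 128, 119, 87.7 and 106 CPM old (-1.02, SE 0.10). Female Tsc22d3 was 183, 211, 169 and 194 CPM young and 149, 149, 124 and 153 CPM old (-0.35, SE 0.10), again without overlap. Over both regions, 5 of the 8 members were lower without overlap in the 4 old male sums (Fkbp5, Plin4, Tsc22d3, Sgk1 and Zbtb16), where 5.11% of all genes were. In female sums 1 member was lower (Tsc22d3; all genes, 3.78%) and 0 were higher (all genes, 2.82%). Within libraries, the male sum was above the female one in 4 of 4 young libraries for Fkbp5, Plin4, Hif3a, Tsc22d3 and Sgk1, and in 3 of 4 for Zbtb16, where 7.91% of all genes were above in 4 of 4. It was below the female one in 4 of 4 old libraries for all 6, as for 7.02% of all genes. Over 15 alternative settings, each library left out in turn included, the male log2 fold change kept its sign for all 6, from -3.09 to -2.44 for Fkbp5 and from -3.75 to -2.33 for Plin4.

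**Figure D2:**
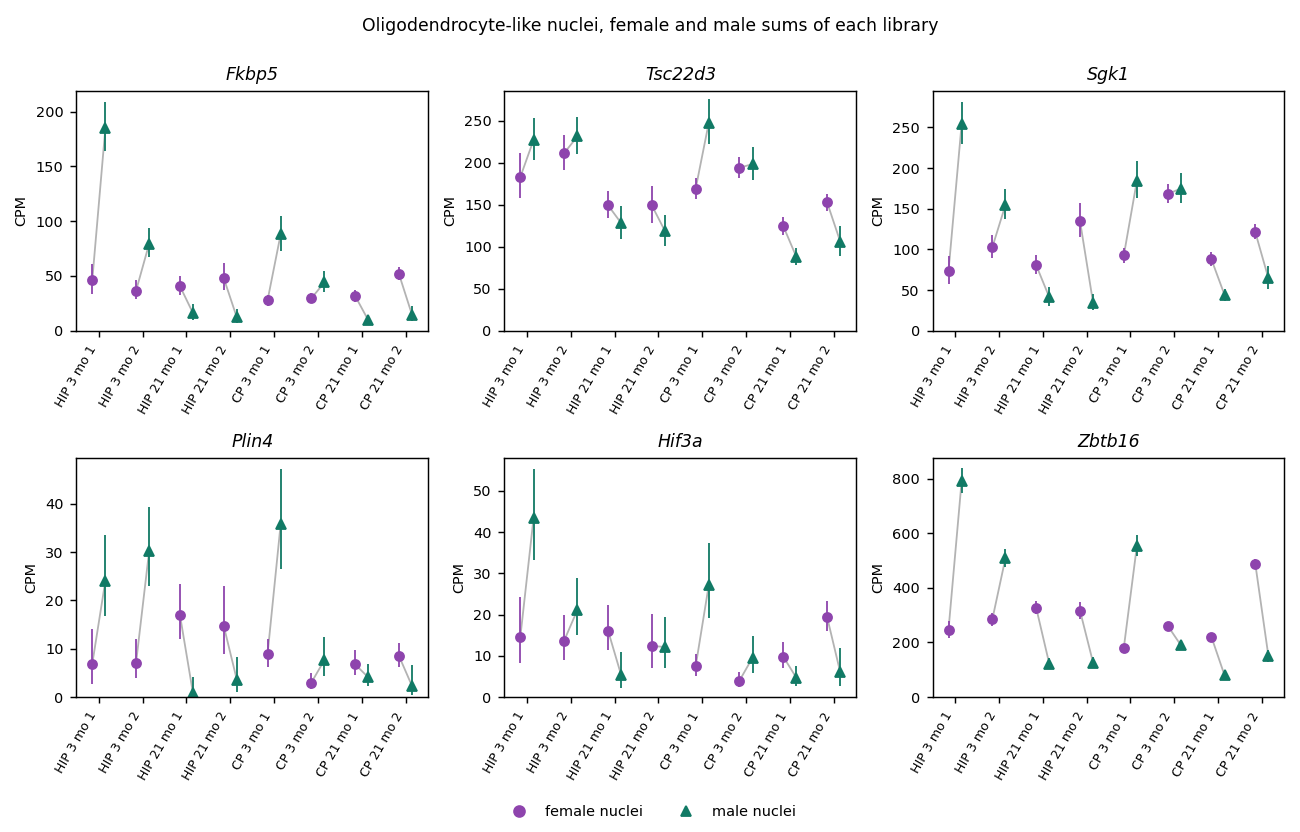
Level (y axis, CPM) of the 6 response genes in oligodendrocyte-like nuclei of each library (x axis; HIP, hippocampus; CP, caudate putamen; mo, months), with circles for female and triangles for male sums, a grey line joining the 2 sums of a library, and exact 95% Poisson intervals that cover counting error only. Young male sums of Fkbp5 (44.2 to 185 CPM) lie above their female partners and old male sums (9.61 to 16.02 CPM) below them.

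The receptors of oligodendrocytes did not follow the division of Fkbp5. Male Nr3c1 in oligodendrocytes was 178 to 200 CPM in the young and 193 to 225 CPM in the old libraries (0.20, SE 0.10), and the female value was 0.17 (SE 0.10). Male Nr3c2 was 200, 213, 161 and 140 CPM young and 260, 232, 217 and 216 CPM old (0.43, SE 0.09), so the ages did not overlap (all genes higher without overlap, 4.52%). Female Nr3c2 was 181 to 256 CPM young and 207 to 256 CPM old (0.17, SE 0.09). The male sum of Nr3c2 was below the female one in 4 of 4 young libraries (all genes, 8.31%) and in 2 of 4 old ones. Male Nr3c2 of microglia was also higher at 21 months without overlap, with 180 to 304 CPM young and 353 to 521 CPM old (0.68, SE 0.16; all genes, 2.61%), against 0.08 (SE 0.14) in females.

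In astrocytes Hif3a and Zbtb16 divided by sex. Male Hif3a was 220, 179, 285 and 192 CPM in the young and 67.6, 74.0, 65.5 and 126 CPM in the old libraries (-1.40, SE 0.19). Female Hif3a was 94.6, 108, 147 and 130 CPM young and 119, 111, 151 and 226 CPM old (0.34, SE 0.18). The female minus male difference was 1.75 (SE 0.15). Male Zbtb16 was 434, 271, 249 and 104 CPM young and 82.9, 65.5, 70.2 and 76.2 CPM old (-1.72, SE 0.29), while female Zbtb16 stayed between 95.5 and 169 CPM at both ages (0.01, SE 0.27). These were the 2 members lower without overlap in old male astrocytes, where 3.17% of all genes were. In females 0 members were, and 2.6% of all genes. Male Nr3c2 in astrocytes was 559.9, 532, 423 and 489 CPM young and 623, 653, 717 and 552 CPM old (0.38, SE 0.10), and female Nr3c2 was 568 to 645 CPM over both ages (0.01, SE 0.10). The male sum of Nr3c2 was below the female one in 4 of 4 young libraries (all genes, 9.47%) and 2 of 4 old ones. Male Fkbp5 in astrocytes, from 5 to 83 UMIs per sum, was 35.9, 16.9, 15.1 and 4.06 CPM young and 5.92, 3.93, 3.82 and 8.22 CPM old (-1.53, SE 0.48), with overlap. Female Fkbp5 there was 6.56 to 12.3 CPM young and 2.61 to 15.5 CPM old (-0.02, SE 0.42). Astrocyte Sgk1 was -0.60 (SE 0.26) in males and -0.62 (SE 0.24) in females over both regions, and Tsc22d3 -0.70 (SE 0.23) and -0.77 (SE 0.21). Within regions Tsc22d3 was -1.20 (SE 0.28) in hippocampal males and -0.31 (SE 0.27) in females, but -0.21 (SE 0.36) and -1.23 (SE 0.31) in the caudate putamen. In microglia Fkbp5 was lower in old males (-1.15, SE 0.27), from 258 to 696 CPM young to 131 to 221 CPM old (all genes lower without overlap, 2.19%), and -0.17 (SE 0.22) in females, a female minus male difference of 0.92 (SE 0.25). In oligodendrocyte precursor cells Zbtb16 was -1.09 (SE 0.52) in males and 0.36 (SE 0.43) in females, and young hippocampal library 1 had 379 CPM in male and 74.2 CPM in female sums.

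**Figure D3:**
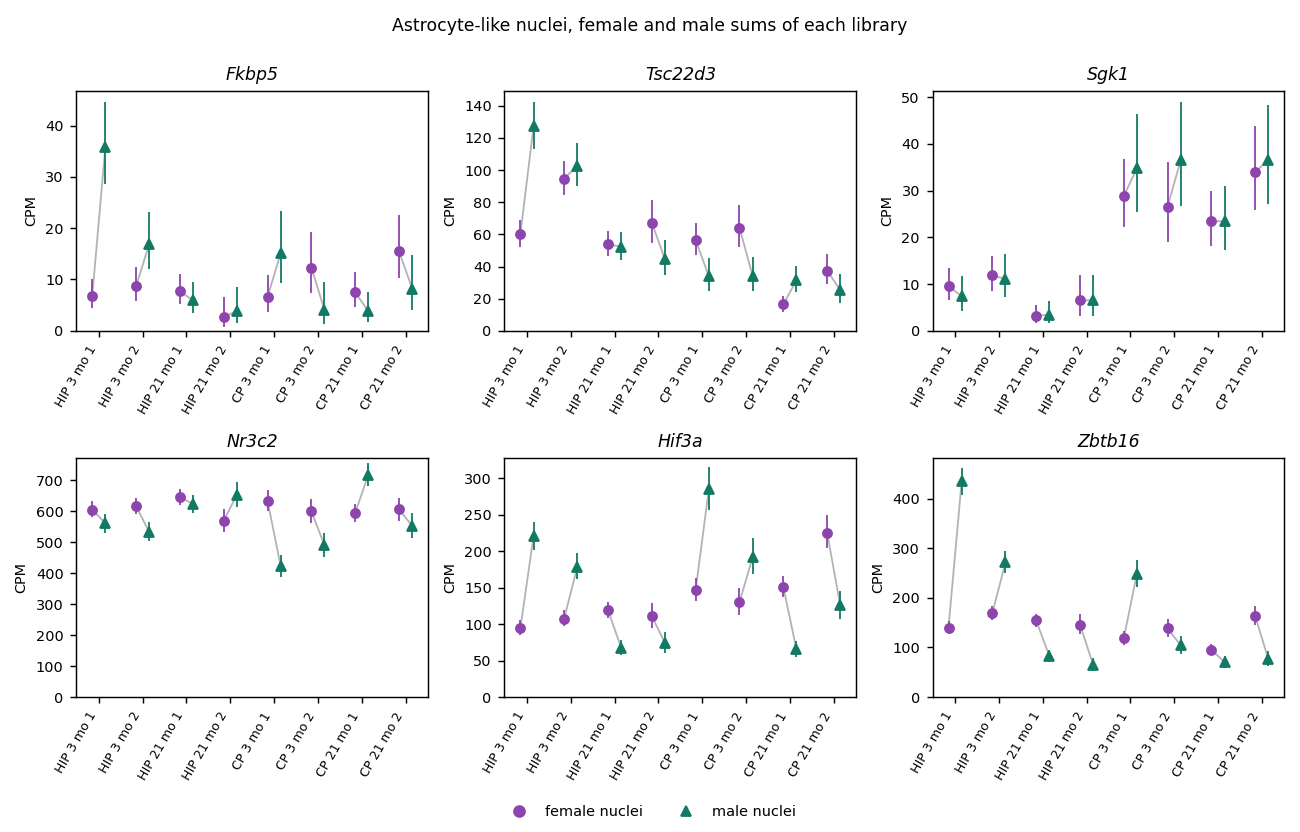
Level (y axis, CPM) of 6 members in astrocyte-like nuclei of each library (x axis; HIP, hippocampus; CP, caudate putamen; mo, months), with circles for female and triangles for male sums and exact 95% Poisson intervals that cover counting error only. Male Hif3a lies between 179 and 285 CPM at 3 months and between 65.5 and 126 CPM at 21 months, while Sgk1 shows no such division.

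Several measures bear on this split. Male and female nuclei of a library went through 1 capture and 1 sequencing library, but came from separate samples, so each sum stands for 1 sample and sex cannot be told apart from that sample's own history. The female share of sexed oligodendrocytes differed between libraries, with 43.9%, 53.8%, 62.8% and 47.0% in hippocampal young 1, young 2, old 1 and old 2, and 75.9%, 70.8%, 58.3% and 80.3% in the caudate putamen. The summed level of the 8 markers of oligodendrocyte was 8089 to 10635 CPM over male and 8195 to 10469 CPM over female oligodendrocyte sums. In oligodendrocytes the 12 clock genes summed to 451 to 615 CPM in male and 444 to 586 CPM in female sums, and the 10 handling and heat shock genes to 50.3 to 224 CPM and 45.3 to 188 CPM. The clock sum joins genes that peak at opposite times of day, such as Arntl and Dbp. It therefore cannot show whether samples were taken at different times. In the caudate putamen the oligodendrocyte class was made of 2 main clusters whose shares differed by age, the larger holding 67.5% and 66.0% of the class in young and 81.5% and 87.2% in old libraries. The part of cluster make-up, clock and handling genes in the sex and age values was not tested.

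In principal, D1 and D2 neurons the age differences of Fkbp5 were small, though D1 and D2 neurons had lower levels at 21 months without overlap. Dentate granule Fkbp5 was 111 and 110 CPM young and 122 and 110 CPM old (0.12, SE 0.07), and CA1 Fkbp5 53.1 and 54.4 CPM young and 56.5 and 45.7 CPM old (0.02, SE 0.12). In D1 neurons Fkbp5 was 52.7 and 54.6 CPM young and 47.6 and 49.3 CPM old (-0.17, SE 0.07; all genes lower without overlap, 22.5%). In D2 neurons it was 55.5 and 56.7 CPM young and 46.9 and 53.3 CPM old (-0.19, SE 0.07; all genes, 25%). The female minus male difference of the Fkbp5 age effect was 0.28 (SE 0.09) in dentate granule cells, 0.20 (SE 0.18) in D1 and 0.05 (SE 0.27) in CA1 neurons, against 3.05 in oligodendrocytes. Inhibitory interneurons had lower Fkbp5 at 21 months in both regions, with 27.5 and 29.1 CPM young and 15.6 and 21.5 CPM old in the hippocampus (-0.52, SE 0.21; all genes lower without overlap, 28.1%). In the caudate putamen it was 23.7 and 20.5 CPM young and 13.8 and 20.2 CPM old (-0.33, SE 0.23; all genes, 22.2%).

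Nr3c2 was higher at 21 months in CA1, D1 and D2 neurons, and Sgk1 in dentate granule and eccentric medium spiny neurons. In inhibitory interneurons the log2 fold change of Nr3c2 was -0.17 in the hippocampus and 0.30 in the caudate putamen. CA1 Nr3c2 was 1428 and 1351 CPM young and 1892 and 1742 CPM old (0.47, SE 0.09; all genes higher without overlap, 12.1%), with like values in male (0.47, SE 0.12) and female nuclei (0.38, SE 0.12). D1 Nr3c2 was 273 and 258 CPM young and 333 and 316 CPM old (0.26, SE 0.08; all genes, 29.6%), and D2 Nr3c2 285 and 283 CPM young and 354 and 350 CPM old (0.29, SE 0.07; all genes, 30.4%). Nr3c2 in dentate granule cells overlapped between ages (0.06, SE 0.07). Dentate granule Sgk1 was 56.1 and 53.5 CPM young and 69.1 and 69.0 CPM old (0.39, SE 0.07), opposite in sign to oligodendrocyte Sgk1. Eccentric medium spiny neurons had Sgk1 at 53.8 and 53.2 CPM young and 79.4 and 80.5 CPM old (0.58, SE 0.10; all genes, 21.7%). Of the 8 members, 1 was higher without overlap in CA1, 2 in D1, 3 in D2 and 1 in eccentric neurons. Lower without overlap were 2 in CA1 (all genes, 32.8%), 1 in D1 (22.5%), 1 in D2 (25%) and 0 in eccentric neurons (21.2%). Beside the shares of all genes, these values are descriptions of listed genes only. In dentate granule cells 2 members were higher without overlap (Nr3c1 and Sgk1; all genes, 15.7%) and 3 were lower (Plin4, Tsc22d3 and Zbtb16; all genes, 32.9%). Dentate granule Tsc22d3 was low, at 1.70 and 3.96 CPM young and 1.48 and 0.972 CPM old (-1.16, SE 0.43). The make-up of that class differed too, its largest cluster holding 24.5% and 18.5% of young and 55.4% and 53.1% of old dentate granule nuclei. Among D2 nuclei 1 cluster held 33.5% and 43.2% of young and 15.5% and 10.4% of old nuclei, and another 23.7% and 30.2% against 37.2% and 64.7%. A D1 cluster held 35.6% and 4.58% of young and 32.1% and 2.33% of old nuclei in libraries 1 and 2. The part of this make-up in the neuronal values was not tested. In CA3 the 5 members that passed the filter lay between -0.22 (Zbtb16) and 0.19 (Sgk1) with age.

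**Figure D4:**
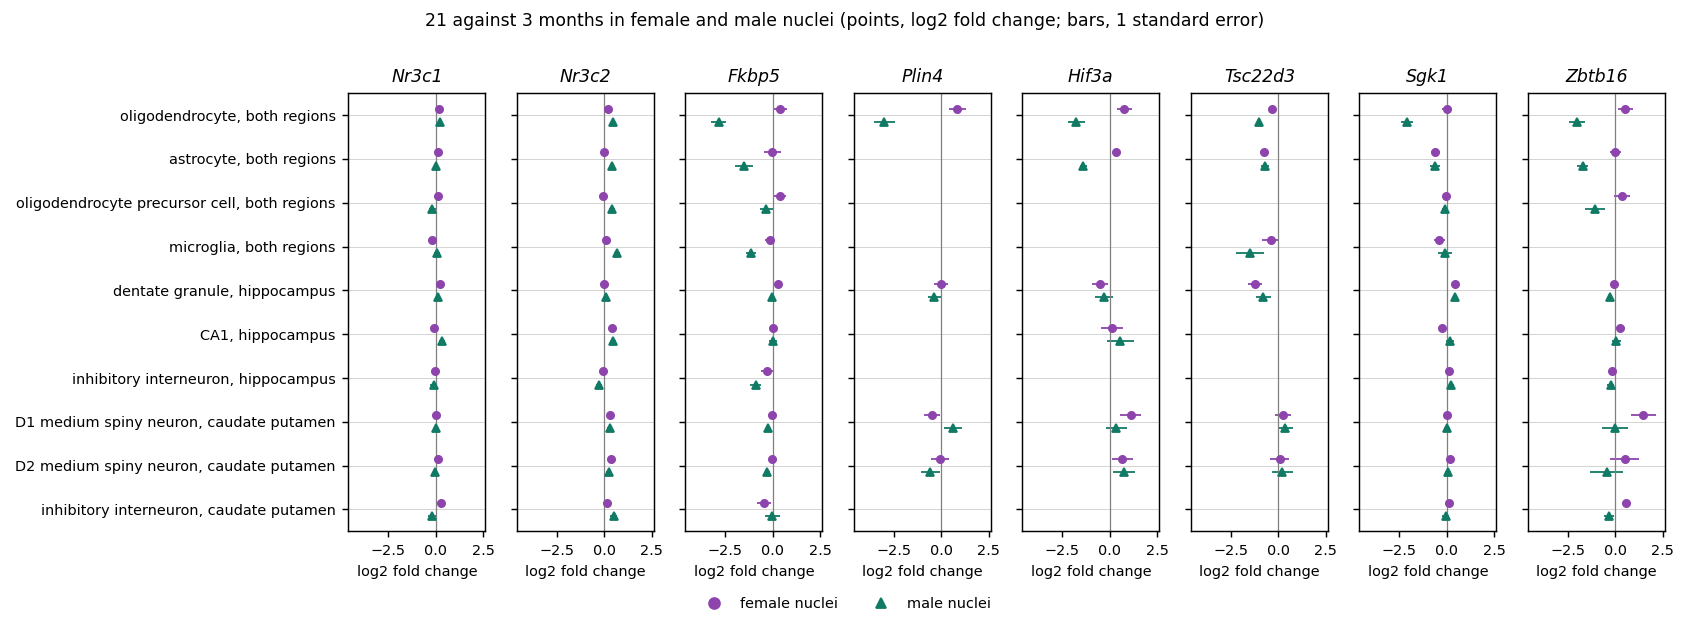
Log2 fold change of 21 against 3 months (x axis; bars, 1 standard error) in female (circles) and male sums (triangles) of each class (y axis) for the 8 genes, over both regions for glia and within the region for neurons; genes that did not pass the filter on low counts are left blank. In oligodendrocytes the male values of Fkbp5, Plin4, Hif3a, Sgk1 and Zbtb16 lie between -3.01 and -1.76 and the female ones between 0.01 and 0.84, while Fkbp5 lies between -0.29 and 0.25 in both sexes of D1, D2, CA1 and dentate granule neurons.

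Between regions, 3 members did not overlap in astrocytes, 2 in microglia (Sgk1 and Zbtb16; all genes, 5.68% higher and 3.88% lower in the caudate putamen), 1 in endothelial cells and 1 in oligodendrocyte precursor cells. Sgk1 was 3.17 to 11.8 CPM in hippocampal and 22.2 to 37.2 CPM in caudate putamen astrocytes (2.24, SE 0.23), the only member higher there without overlap (all genes, 12%). Sgk1 in the D1 and D2 neurons of the caudate putamen was 323 to 448 CPM, and the summed level of the 6 markers of medium spiny neuron, either type, was 595 to 808 CPM in hippocampal and 1483 to 1804 CPM in caudate putamen astrocytes. In D1 and D2 neurons themselves that sum was 7514 to 9704 CPM, and all 6 markers had counts in every caudate putamen astrocyte sum. The part of free neuronal RNA in the Sgk1 difference was not tested. The same holds for microglial Sgk1 (31.7 to 51.8 CPM against 65.9 to 118 CPM; 1.11, SE 0.19), where the marker sum was 92.7 to 174 CPM from 2 to 5 of the 6 markers in the hippocampus and 916 to 1778 CPM in the caudate putamen. Lower in caudate putamen astrocytes were Nr3c1 (145 to 156 CPM against 178 to 207 CPM; -0.38, SE 0.07) and Tsc22d3 (24.6 to 45.5 CPM against 53.4 to 93.7 CPM; -1.001, SE 0.10), 2 members where 8.78% of all genes were. Microglial Zbtb16 was 2.601 to 10.8 CPM in the caudate putamen and 20.6 to 36.9 CPM in the hippocampus (-2.14, SE 0.36). Mean Zbtb16 was 376 CPM in CA1 and 374 CPM in dentate granule cells, but 0.804 CPM in D1 and 0.863 CPM in D2 neurons. The part of free neuronal RNA in the microglial Zbtb16 difference was not tested. Endothelial Nr3c1 was 193 to 299 CPM in the caudate putamen and 321 to 370 CPM in the hippocampus (-0.41, SE 0.16; all genes lower without overlap, 3.27%). Sgk1 in oligodendrocyte precursor cells was 203 to 221 CPM and 228 to 265 CPM (-0.22, SE 0.09; all genes, 2.68%). In oligodendrocytes 0 of the 8 members was free of overlap between regions, where 8.27% of all genes were higher and 5.29% lower without it.

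Within some groups the 2 libraries differed more for response genes of oligodendrocytes than for most genes tested. Plin4 differed 3.10-fold between the young caudate putamen libraries, and 0.0342% of the 14638 genes tested differed as much. Zbtb16 differed 2.59-fold between the old caudate putamen libraries (0.0956% of genes as much), Hif3a 2.31-fold (0.451%) and Fkbp5 2.03-fold (0.902%). Fkbp5 differed 2.09-fold between the young hippocampal libraries, where library 1 was higher (3.93% of genes as much). The receptors were steady by comparison, as Nr3c1 differed 1.15-fold and Nr3c2 1.02-fold between the old caudate putamen libraries, with 40.4% and 89.7% of genes as much. Those old libraries also held different shares of female oligodendrocytes, 58.3% in library 1 and 80.3% in library 2, and old female sums were above old male sums for all 6 response genes, and the part of the sex mix in the spread was not tested. In young hippocampal library 1, male microglia had 696 CPM of Fkbp5 and male oligodendrocytes 185 CPM, the highest male values of both classes. Endothelial spreads were larger still (Fkbp5 6.07-fold between the young caudate putamen libraries), from sums of 43 to 113 nuclei in that region.

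Other genes of the pathway were tested from a list of 47 (25 response genes, 9 receptor chaperones, 6 coregulators and 7 genes of steroid enzymes, transport and the CRH system). The list was chosen with earlier results of these data known, so its tests are not independent of these libraries. Over both regions, 15 of 172 pairs of gene and class had an adjusted p under 0.05, all 15 lower, in the quasi-likelihood test of edgeR with Benjamini-Hochberg adjustment over all genes of a class. Of all gene and class pairs 2.99% passed, 1.08% in the lower direction. By list, 10 of 45 chaperone pairs from 5 of the 9 chaperones, 5 of 90 response gene pairs, 0 of 30 coregulator pairs and 0 of 7 steroid and CRH pairs passed. With replicate number as a block the total was 23, 2 of them higher. Hspa8, the constitutive Hsp70 chaperone, was lower in astrocytes (113 and 173 CPM young against 61.9 and 67.6 CPM old in the hippocampus, 152 and 129 CPM against 100 and 93.4 CPM in the caudate putamen; -0.81, SE 0.12, edgeR adjusted p = 0.00444). It also passed in oligodendrocytes (-0.71, SE 0.11, adjusted p = 0.00692), microglia (-0.75, SE 0.14, adjusted p = 0.00837) and oligodendrocyte precursor cells (-0.79, SE 0.17, adjusted p = 0.0113), all edgeR adjusted. Hsp90ab1, the constitutive HSP90, was lower in oligodendrocyte precursor cells (-0.72, SE 0.12, edgeR adjusted p = 2.2e-04). In oligodendrocytes Dnaja1, an Hsp70 partner (-0.50, SE 0.08, adjusted p = 0.00483), Stip1, which links Hsp70 to HSP90 (-0.61, SE 0.11, adjusted p = 0.0100), and the response gene Arrdc2 (-0.83, SE 0.12, adjusted p = 0.0032) were lower, by the same test. Arrdc2 there was 45.6 and 35.3 CPM in young and 21.7 and 21.9 CPM in old hippocampal libraries, and 36.1 and 37.5 CPM against 18.3 and 22.01 CPM in the caudate putamen. The count became 5 without old hippocampal library 1 and 9 without old hippocampal library 2. Of these 8 pairs 4 passed under all alternatives, and without old hippocampal library 1 the others had an adjusted p of 0.0505 to 0.139 (Hspa8 in astrocytes, microglia and precursor cells, and Stip1). Others missed the threshold without young hippocampal library 2 (Hspa8 in microglia, adjusted p = 0.0706, and in precursor cells, adjusted p = 0.0662), old caudate putamen library 2 (Hspa8 in precursor cells, adjusted p = 0.0661), old hippocampal library 2 (same pair, adjusted p = 0.0951) or young caudate putamen library 1 (Stip1, adjusted p = 0.055), all edgeR adjusted.

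Within the hippocampus 9 of 314 pairs passed, all lower at 21 months (edgeR; 0.851% of all pairs), of which 8 were chaperones and 1 the response gene Bcl6 in dentate granule cells (-0.49, SE 0.08, adjusted p = 0.0209). With replicate number as a block 15 passed, all lower. Hsp90ab1 in oligodendrocyte precursor cells (135 and 174 CPM young, 71.1 and 70.5 CPM old; -1.07, SE 0.18, edgeR adjusted p = 4.8e-04) was the 1 of the 8 named pairs that passed in every alternative. The other named pairs were Hspa8 in astrocytes (-1.09), CA1 (-0.59) and oligodendrocytes (-0.85), Hsp90ab1 in microglia (-1.12) and oligodendrocytes (-0.64), and Dnaja1 in oligodendrocytes (-0.66). The count was 17 by DESeq2, 3 with the 4 hippocampal libraries alone, 1 without old hippocampal library 1, 1 without old library 2, 35 without young library 1 (3 of them higher) and 14 without old caudate putamen library 2, while 5 of the 8 named pairs missed the threshold without young hippocampal library 2 (adjusted p 0.132 to 0.374). Leaving out young caudate putamen library 1 or 2 lost Hsp90ab1 and Hspa8 in oligodendrocytes (adjusted p 0.0761 to 0.0818). In the caudate putamen 3 of 317 pairs passed (1.25% of all pairs), or 15 with replicate number as a block, 3 of them higher. The 3 of the main fit were all lower: Hspa8 in D2 (-0.58, SE 0.09, adjusted p = 0.0237) and D1 neurons (-0.54, SE 0.06, adjusted p = 0.0243) and Arrdc2 in oligodendrocytes (-0.82, SE 0.16, adjusted p = 0.0346), edgeR adjusted. The count was 0 without old caudate putamen library 2, with adjusted p 0.0533 to 0.14 for these pairs, 6 by DESeq2, and 6 without young hippocampal library 1 or 2, of which 1 was higher in each. Each of the 3 other caudate putamen libraries lost 2 of the 3 pairs when left out (adjusted p 0.0793 to 0.314), and either old hippocampal library lost Arrdc2 (0.0652 and 0.0655). The age effects of both regions differed in 0 of 172 pairs by edgeR (0.00862% of all pairs), with 17 at an unadjusted p under 0.05 and 0 by DESeq2, and 2 pairs without young hippocampal library 1.

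Between regions 26 of 172 pairs passed, 7 higher and 19 lower in the caudate putamen (edgeR; 11.2% of all pairs passed, 4.72% lower). Hsd11b1, the enzyme that regenerates active glucocorticoid from its inert form, was 83.7, 72.3, 74.3 and 100.5 CPM in the 4 hippocampal and 11.1, 6.97, 7.41 and 8.57 CPM in the 4 caudate putamen astrocyte sums (-3.30, SE 0.15, edgeR adjusted p = 1.6e-08). It was lower in caudate putamen oligodendrocytes too, at 0.105 to 1.03 CPM against 1.82 to 5.23 CPM (-2.67, SE 0.45, edgeR adjusted p = 0.00241). These oligodendrocyte levels were low in both regions, and the part of free astrocyte RNA in them was not tested. In astrocytes the metallothioneins Mt2 (-0.83, SE 0.10, adjusted p = 2.1e-05) and Mt1 (-0.62, SE 0.10, adjusted p = 0.00109), Glul, glutamine synthetase (-0.53, SE 0.07, adjusted p = 8.8e-05), and Nfkbia, an inhibitor of NF-kB (-1.34, SE 0.19, adjusted p = 1.6e-04), were lower, by edgeR. The transcription factor Cebpd in oligodendrocytes (-1.85, SE 0.25, adjusted p = 5.0e-04) and Gpd1, a glycerol phosphate dehydrogenase, in oligodendrocyte precursor cells (-1.03, SE 0.20, adjusted p = 6.8e-04) were lower as well, edgeR adjusted. All 8 of these pairs passed in each of 15 alternatives. The number of pairs passing was 15 by DESeq2 (1 higher), 12 and 13 without old hippocampal library 1 (0 higher) or 2 (1 higher), and 16 and 17 without old (2 higher) or young (3 higher) caudate putamen library 2.

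Female and male nuclei differed in 0 of 322 pairs by edgeR with library as a block (0.0895% of all pairs), with 19 at an unadjusted p under 0.05 and 0 by DESeq2. The count was 1 without old hippocampal library 2 or young hippocampal library 2. This comparison took young and old libraries together. Sex differences of opposite sign in young and old libraries can cancel in it. It therefore cannot show whether the sexes were alike at either age. The age effect differed between the sexes in 2 of 345 pairs (0.251% of all pairs), a comparison added after the data had been seen. Klf15, a transcription factor induced by glucocorticoids, in oligodendrocytes was 34.4, 26.5, 27.2 and 19.2 CPM in young male and 10.7, 18.6, 11.4 and 9.77 CPM in old male sums, while female sums were 14.8 to 20.6 CPM young and 15.4 to 23.3 CPM old. The female minus male difference was 1.12 (SE 0.26, edgeR adjusted p = 0.0171). Glul in astrocytes was 561, 522, 366 and 384 CPM in young female and 623, 697, 521 and 528 CPM in old female sums, while male sums were 500.4 to 669 CPM young and 312 to 669 CPM old. The difference was 0.63 (SE 0.13, edgeR adjusted p = 0.0205). Klf15 missed the threshold with at least 2 UMIs for a sex call (0.142) and without young hippocampal library 1 (0.0594) or 2 (0.0732), old hippocampal library 1 (0.0977) or old caudate putamen library 2 (0.0549), and DESeq2 gave it no adjusted p. Glul missed it with doublets retained (0.267), by DESeq2 (0.0525) and without old caudate putamen library 1 (0.0609), young caudate putamen library 1 (0.0563) or 2 (0.067), old hippocampal library 2 (0.0856) or young hippocampal library 2 (0.0508). The count was 4 without young caudate putamen library 2, 5 without young hippocampal library 1 and 1 without any of the old libraries or young hippocampal library 2. Over the response genes, 14 of 20 tested in oligodendrocytes were below 0 with age in males (median -0.32; all genes, -0.04) and 11 of 20 in females (median -0.05; all genes, -0.02). The median of all genes was thus below 0 in both sexes as well. The share of all genes below 0 was not computed, so these counts are descriptions only.

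**Figure D5:**
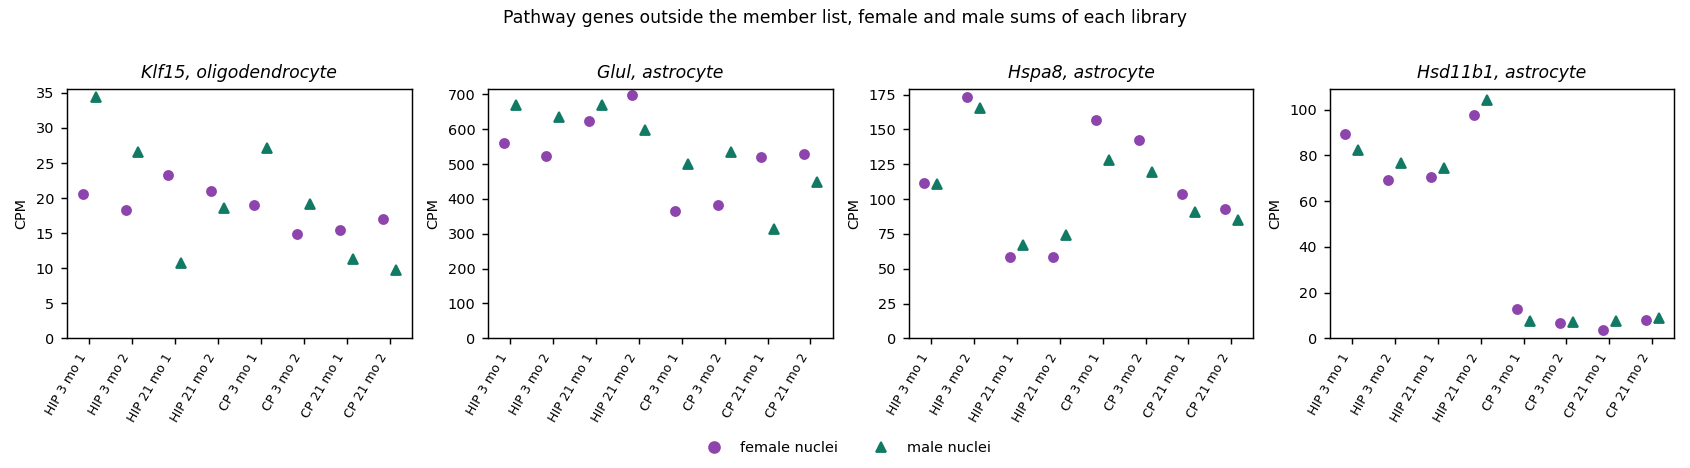
Level (y axis, CPM) of 4 pathway genes in oligodendrocyte-like (Klf15) or astrocyte-like nuclei of each library (x axis; HIP, hippocampus; CP, caudate putamen; mo, months), with circles for female and triangles for male sums. Klf15 is lower in old than in young male sums of each region, Hspa8 is lower at 21 months in both sexes, and Hsd11b1 is at most 12.7 CPM in the caudate putamen in both sexes.

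Genes with the most similar pattern were sought over 96 sums of class and library in 19 classes, which share libraries and depth, among 10624 genes with a mean of at least 10 CPM (Pearson r of log2(CPM + 1), given as a description). The 3 nearest to Nr3c1 were Xiap (0.86), Smurf2 (0.86) and Kat6a (0.86), and to Nr3c2 Ptpn3 (0.76), St6galnac5 (0.75) and Pigk (0.74). For Tsc22d3 they were Neat1 (0.83), Glul (0.82) and Baz2b (0.82), and for Sgk1 Cacnb4 (0.75), Nyap2 (0.74) and Anks1b (0.74). For Hif3a they were Utp14b (0.85), Paqr8 (0.84) and Acsl3 (0.84), for Zbtb16 Tcf4 (0.87), Ctif (0.79) and Nfib (0.77), and for Plin4 Nbas (0.76), Ankub1 (0.73) and Gm12324 (0.73). Among the members themselves the highest was Nr3c1 with Tsc22d3 (0.64), and Nr3c1 with Nr3c2 was -0.24.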

How the data were processed

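The authors deposited raw UMI counts per gene and nucleus for 8 libraries, which per the submitters' processing notes were made with Cell Ranger 4.0.0 on mm10; the file headers name versions 6.1.2 (7 libraries) and 7.0.0 (1 library). The 8 genes and all lists were chosen with earlier results of these data known. Of 109826 barcodes, 1307 with under 500 genes, 3 with over 5% mitochondrial counts and 10604 called doublets by Scrublet were removed, leaving 97912. The automatic doublet threshold was used except in young hippocampal library 2, where it called 0.129%. There a threshold set by the expected share of doublets removed 3136. Nuclei of each region were clustered with scanpy 1.11.5 (3000 variable genes, without the members and list genes, 40 principal components, 20 neighbours) and Leiden at resolution 1.0 (igraph 0.11.9). Clusters were named from marker lists, and the limits of the naming rule were set after the cluster tables had been seen. Counts were summed per class and library (at least 20 nuclei), and also per sex, a split of the age comparison added after the data had been seen. Sums were fitted across all genes of a class by edgeR 4.0.16 (R 4.3.3), with trimmed mean factors, the low-count filter, the quasi-likelihood test and Benjamini-Hochberg adjustment at 0.05, and checked on simulated data. Each SE of an edgeR fold change was derived from that test, also for the members. It is the absolute log2 fold change divided by the square root of the F statistic. DESeq2 1.42.0, other normalization and clustering, no filter, doublets retained, a replicate block and leaving out each library were alternatives. Levels of all 8 members were computed in every class, and fold changes of those that passed the low-count filter; values of little difference are not all printed. Pathway genes are named for the 8 pairs of gene and class with the smallest adjusted p under 0.05 in a comparison, and similar genes as the 3 with the highest r (those of Fkbp5 are not reported here). Precision is limited by the UMI counts of each sum, and the intervals cover counting error only.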

Additional observations from a re-analysis of the deposited data

Results flagged for a closer look

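Female and male sums moved in opposite directions with age in every library of a region in 6 cases of 5 gene and class pairs of glia, and these differences were not tested. Of all genes tested, 3.93% and 3.58% did so in oligodendrocytes and 4.34% and 4.56% in astrocytes of the hippocampus and the caudate putamen. In oligodendrocytes the log2 fold changes in females and males were 0.59 and -2.47 for Fkbp5 and 1.42 and -1.71 for Hif3a in the caudate putamen. They were 1.26 and -3.56 for Plin4 and 0.33 and -2.37 for Zbtb16 in the hippocampus. Astrocyte Hif3a gave 0.25 and -1.47 in the hippocampus and 0.43 and -1.33 in the caudate putamen. Nr3c1 in D2 neurons moved in opposite directions as well, by 0.09 and -0.05 (all genes, 3.14%), and this was not tested. Nr3c2 in inhibitory interneurons was -0.17 in the hippocampus and 0.30 in the caudate putamen, which was not tested. For pathway genes the difference of age effects between the sexes was tested with edgeR. It was 1.12 for Klf15 in oligodendrocytes (adjusted p = 0.0171) and 0.63 for Glul in astrocytes (adjusted p = 0.0205).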

How the results depend on the processing

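Of 404 log2 fold changes of the members, 5099 of 5446 values under the alternatives moved by less than a spread between libraries. This spread was the pooled SD of log2(CPM + 1) within groups, not the SE of the fold change. It is widest for genes whose libraries differ most. Of the 118 changes of at least 0.5, 110 kept their sign in every alternative run. Counts of pathway pairs depended more on the settings, and the cause was not tested. With DESeq2 the counts were 17 (age, hippocampus), 6 (age, caudate putamen), 15 (region) and 1 (age effect difference between sexes). Without the low-count filter, which tests more pairs, they were 35, 15 and 35 for age in the hippocampus, the caudate putamen and both regions, 3 for the age effect difference between regions, 2 for sex and 10 for the age effect difference between sexes. With the 4 libraries of a region alone they were 3 and 5. The age effect difference between sexes gave 1 pair with doublets retained and 1 with 2 UMIs for a sex call. The labels do not say that replicate numbers pair libraries, and deviations of libraries with the same number correlated between -0.15 and 0.52 over 42 pairs of groups within a class, with 0.52 in D1, 0.36 in D2, 0.28 in endothelial cells, 0.23 in astrocytes and 0.20 in eccentric neurons between the ages of the caudate putamen. The replicate block gave 15, 15 and 23 pairs for age in the hippocampus, the caudate putamen and both regions, of which 0, 3 and 2 were higher at 21 months. Leaving out 1 library at a time gave 1 to 35, 0 to 6 and 5 to 22 pairs for these, 0 to 2 for the age effect difference between regions, 12 to 36 for region, 0 to 1 for sex and 1 to 5 for the age effect difference between sexes. Depth limits members of low level such as Plin4, at 1 UMI in the lowest male oligodendrocyte sum.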
